A study of Mus musculus with 3 samples.

Results

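The gene set described here consists of 10 immediate early genes, chosen by symbol and not by a threshold: Fos, Fosb, Jun, Junb, Jund, Egr1, Nr4a1, Ier2, Btg2 and Dusp1. All 10 were among the 14721 genes of the deposited count table. The cells were mouse bone marrow LSK cells, a sorted fraction negative for lineage markers and positive for Sca-1 and Kit, in which blood stem cells and multipotent progenitors reside. The DKO library was labelled Spop(D/D) Myd88(-/-), the KO library Spop(D/D) Myd88(+/+) and the WT library Spop(+/+) Myd88(+/+). DKO and KO therefore share the Spop genotype and differ in Myd88, while KO and WT share intact Myd88. There was 1 Chromium 3' v2 library per genotype. The age of the mice, the number pooled and the driver of any recombinase are not given in the sources used here.

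Immediate early genes are transcribed within minutes of a stimulus from factors already present in the cell, and most of their transcripts and proteins decay quickly. FOS and JUN family proteins pair through leucine zippers to form AP-1, which binds enhancers of growth, stress and cytokine genes, while EGR1 and NR4A1 bind DNA through zinc fingers. In blood stem cells EGR1 and NR4A1 are known as factors tied to quiescence. SPOP is a substrate receptor of the CUL3 ubiquitin ligase, and MyD88 relays signals of Toll-like receptors and of the interleukin-1 receptor family, which can switch on this gene class. Tissue dissociation and cell sorting are also known to induce it.

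The DKO, KO and WT libraries held 8184, 4920 and 8147 cells, with medians of 12404.5, 17319 and 9245 UMIs (unique molecular identifiers) per cell and 85700749 to 109920419 UMIs in all. Between 46 and 83 cell barcodes were shared by each pair of libraries. Myd88 transcripts stood at 4.47, 25.8 and 13.7 counts per 1000000 UMIs (CPM) in DKO, KO and WT. Spop stood at 77.1, 63.1 and 70.7 CPM, and since the reads come from transcript 3' ends and the deleted exons are not given, its level does not check the deletion. Xist was at 1537 CPM in DKO, 0 in KO and 0.187 in WT, and the Y-linked Ddx3y at 0, 32.2 and 43.9, so sex cannot be told apart from genotype in either DKO comparison. Dissociation, sorting and other handling of each library can likewise not be told apart from its genotype in any comparison. With no replicate libraries no test was made between genotypes. All intervals are 95% and cover counting error only.

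Levels were lowest in KO, intermediate in DKO and highest in WT for each of the 10 genes. Fos, the prototype AP-1 subunit, was at 383 CPM in DKO (interval 379 to 387), 63.6 in KO (62.1 to 65.2) and 612 in WT (607 to 617). Its close relative Fosb was at 56.1 CPM in DKO, 31.9 in KO and 143 in WT. The intervals of the libraries did not overlap for either gene, and the DKO value lay nearer to WT for Fos and nearer to KO for Fosb.

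The JUN family, which can pair with FOS proteins or among themselves, had the same order. Jun was at 255 CPM in DKO, 97.2 in KO and 422 in WT. Junb, which can restrain Jun-driven growth, was at 91.5, 51.8 and 158 CPM in DKO, KO and WT. Jund, the family member usually regarded as constitutive rather than inducible, was at 232, 82.7 and 338 CPM in the same order of libraries. Jund thus moved with the inducible members across these 3 libraries.

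Egr1, a zinc finger factor that restrains stem cell cycling and exit from the marrow, was at 54.9 CPM in DKO, 14.5 in KO and 130 in WT. Nr4a1, an orphan nuclear receptor induced by antigen, Toll-like receptor and growth factor signals, was at 30.5 CPM in DKO (29.5 to 31.6), 2.43 in KO (2.13 to 2.75) and 41.7 in WT (40.4 to 43.1). The KO library held 246 Nr4a1 UMIs in all, against 3355 in DKO and 3575 in WT.

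The remaining genes are feedback and nuclear response genes. Ier2, a small nuclear immediate early protein, was at 156 CPM in DKO, 68.0 in KO and 224 in WT. Btg2, an antiproliferative protein that recruits the CCR4-NOT deadenylase, was at 46.4 CPM in DKO, 16.3 in KO and 115 in WT. Dusp1, the nuclear phosphatase that switches off p38 and JNK, was at 95.1 CPM in DKO, 25.6 in KO and 113 in WT. Dusp1 in DKO came nearest to its WT level among the 10.

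**Figure D1:**
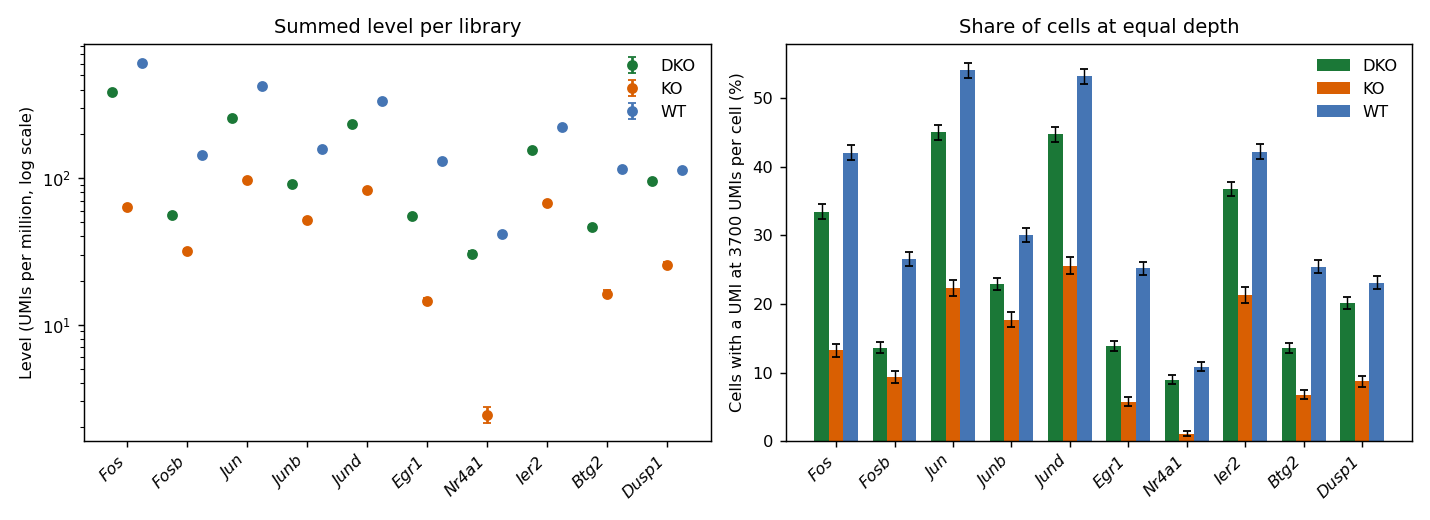
Left, the level of each gene in CPM on a log axis, with exact Poisson 95% intervals. Right, the percentage of cells with at least 1 UMI after every cell was thinned to 3700 UMIs, with Clopper-Pearson 95% intervals. DKO, KO and WT are drawn from left to right for each gene, 1 library each. KO is the lowest and WT the highest for all 10 genes in both panels, with Fos at 63.6 CPM in KO and 612 in WT.

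KO and WT are single libraries that differ in Spop genotype, with Myd88 intact in both. All 10 genes were at least 1.5-fold lower in KO, where 12.3% of the 5141 genes with a mean of at least 20 CPM were at least 1.5-fold lower and 8.85% at least 1.5-fold higher. Nr4a1 was 17.2-fold lower (15.1 to 19.6), Fos 9.63-fold (9.38 to 9.88), Egr1 8.96-fold (8.49 to 9.47) and Btg2 7.06-fold (6.70 to 7.45). Fosb, Dusp1, Jun and Jund were 4.46-fold, 4.40-fold, 4.34-fold and 4.08-fold lower, and Ier2 and Junb 3.29-fold and 3.06-fold. The median log2 ratio was -2.15 over the 10 genes, beside 0.02 over all genes measured.

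Markers of other cell types moved with this contrast. The 13 neutrophil progenitor markers summed to 7994 CPM in KO and 1123 in WT, the 15 erythroid markers to 1652 and 699, and the 13 B lineage markers to 49.0 and 1053, with Pax5 and Rag1 among those at 0 in KO. Without the clusters that these markers named, all 10 genes still passed the 1.5-fold threshold downwards in KO. That left 2439 KO cells, of which 1542 were in the unnamed cluster 2, led by Vldlr and Ifitm1, which held 25 WT cells. The cells compared were thus still unlike between the libraries. Transcripts of 13 heat shock genes summed to 8774 CPM in KO and 7234 in WT. Of the 9 measured, 2 were at least 1.5-fold higher in KO and 2 lower, and Hspe1 alone was at 1062 and 631 CPM. The sum is not read as a measure of stress or handling.

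The DKO and KO libraries share the Spop genotype and differ in Myd88 and in the transcripts of sex given above. Of the 9 genes with a mean of at least 20 CPM over the pair, 9 were at least 1.5-fold higher in DKO, where the same held for 13.4% of 5163 genes and 6.02% were at least 1.5-fold lower. Fos was 6.02-fold higher (5.87 to 6.19), Egr1 3.77-fold (3.56 to 3.997) and Dusp1 3.71-fold (3.55 to 3.87). Btg2, Jund, Jun and Ier2 were 2.85-fold, 2.81-fold, 2.62-fold and 2.29-fold higher, and Junb and Fosb 1.77-fold and 1.76-fold. Nr4a1 fell below the 20 CPM mean and was 12.6-fold higher (11.05 to 14.4). With TMM scaling the median log2 ratio was 1.31 over the 10 genes, beside -0.12 over all genes.

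The DKO and WT libraries differed less. Of the 10 genes, 6 were at least 1.5-fold lower in DKO, against 1.87% of 5307 genes, and 0 were higher, against 2.43%. Fosb was 2.54-fold lower (2.46 to 2.62), Btg2 2.48-fold (2.40 to 2.57) and Egr1 2.37-fold (2.30 to 2.45), and Junb, Jun and Fos 1.73-fold, 1.65-fold and 1.60-fold. Jund, Ier2, Nr4a1 and Dusp1 were lower by less than 1.5-fold, Dusp1 by 1.19-fold (1.16 to 1.22). The median log2 ratio was -0.70, beside 0.09 over all genes. The 3 comparisons share libraries, so their ratios are not independent of each other.

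To separate how many cells carried a transcript from how much they carried, every cell was thinned to 3700 UMIs, which left out no cell. Fos was detected in 33.5% of DKO cells (32.5 to 34.5), 13.3% of KO cells (12.3 to 14.2) and 42.1% of WT cells (41.0 to 43.2). Jun was detected in 45.1%, 22.3% and 54.1% of DKO, KO and WT cells, and Nr4a1 in 8.98%, 1.10% and 10.9%. Before thinning, the share for Fos was 48.7% in DKO, 25.9% in KO and 59.0% in WT.

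Free RNA in droplets can give a cell a UMI of a gene that it does not transcribe, and no cell type is known to lack these genes altogether. At the same depth, the lowest shares in a KO cell type were 0.203% for Nr4a1, in erythroid progenitor-like cells, and 0.899% for Egr1, in neutrophil progenitor-like cells, and a share is not read here as a share of expressing cells. The ratios between the genes also differed between cell types of the same library. Per 100 Jun UMIs, KO erythroid progenitor-like cells held 46.6 Fosb UMIs and KO neutrophil progenitor-like cells 19.7.

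The share of cells and the count per positive cell were read apart, with the limit that the count in a positive cell cannot be under 1. For Nr4a1, the share of cells was 9.92-fold lower in KO than in WT, while the mean count in cells with the transcript was 1.19 in KO and 1.62 in WT, 1.36-fold lower. At 1.62 in WT, this count had little room to be lower in KO, so the pair of ratios does not tell share from amount for Nr4a1. Egr1, at 2.25 UMIs per positive cell in WT, had a share 4.37-fold and a count per positive cell 1.73-fold lower, under the same limit. For Fos both were low in KO, the share 3.18-fold and the count per positive cell 2.81-fold, at 2.26 UMIs in KO and 6.33 in WT. Among the 10 genes only Junb had a larger ratio in its count per positive cell (1.84-fold lower) than in its share of cells (1.69-fold lower).

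In DKO against KO, Fos again differed in both, with a share 2.53-fold and a count per positive cell 2.07-fold higher. Fosb differed in its share, 1.46-fold higher, while its count per positive cell was 1.65 in DKO and 1.69 in KO. KO cells with Fosb (9.33% of KO cells, against 13.7% in DKO) thus carried about as much of it as DKO cells with Fosb. WT cells with Fosb carried 2.29. The counts in DKO and KO lie near the limit of 1 and come from unlike cells. Of the KO Fosb UMIs 43.7% were in erythroid progenitor-like cells, of which DKO had 2.

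The transcripts were concentrated in a minority of cells, read here from counts before thinning. The 10% of cells with the most Fos held 62.3% of its UMIs in DKO, 81.5% in KO and 58.4% in WT. Fos was found in only 25.9% of KO cells, which limits how the KO value can be read. For Nr4a1 the top 10% of cells held 81.3% of its UMIs in DKO and 79.2% in WT. In KO only 3.66% of cells held any Nr4a1 UMI, so its top 10% hold all of them by construction. The highest Nr4a1 count in any KO cell was 4 UMIs. Jund and Ier2 were spread more evenly, with 44.7%, 45.5% and 43.1% of Jund UMIs and 43.0%, 40.8% and 48.4% of Ier2 UMIs in their top 10% of cells in DKO, KO and WT.

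Co-expression within a cell was read from the number of the 10 genes detected at 3700 UMIs. At least 3 of them were detected in 37.3% of DKO cells (36.3 to 38.4), 16.2% of KO cells (15.2 to 17.3) and 47.9% of WT cells (46.8 to 49.0). At least 7 were detected in 9.42%, 2.42% and 19.0% of DKO, KO and WT cells, and none in 17.6%, 38.7% and 11.5%. All 10 were found together in 43 DKO cells, 0 KO cells and 175 WT cells.

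The shape of this distribution also differed. Over all DKO and all KO cells the share fell at each step from 1 gene onwards, with 4.88%, 4.35% and 2.92% of DKO cells at 6, 7 and 8 genes. In WT the share fell to 3.98% of cells (324) at 6 genes and was 6.46% (526) at 8 and 5.66% (461) at 9, so WT cells formed a lower and an upper group. At 5500 UMIs per cell the WT share was lowest at 7 genes, at 4.07%, and 8.33% at 9. By cell type, named from markers as described further on, the upper group was present in WT stem cell-like cells (4.22% at 6 genes and 8.65% at 8), in lymphoid-primed-like cells (4.77% at 5 and 8.63% at 8) and in clusters left unnamed (3.72% at 6 and 6.27% at 8). The lymphoid-primed-like and unnamed cells include clusters whose leading genes were among these 10. WT megakaryocyte progenitor-like cells had 2.68% at 5 genes and 4.59% at 6, from 523 cells. DKO stem cell-like cells also had 4.81% at 6 genes and 6.68% at 8, from 374 cells, and KO erythroid progenitor-like cells 5.89% at 4 and 6.80% at 5, from 985 cells. In WT B lineage-like cells the share fell at each step from 1 gene to 10.

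**Figure D2:**
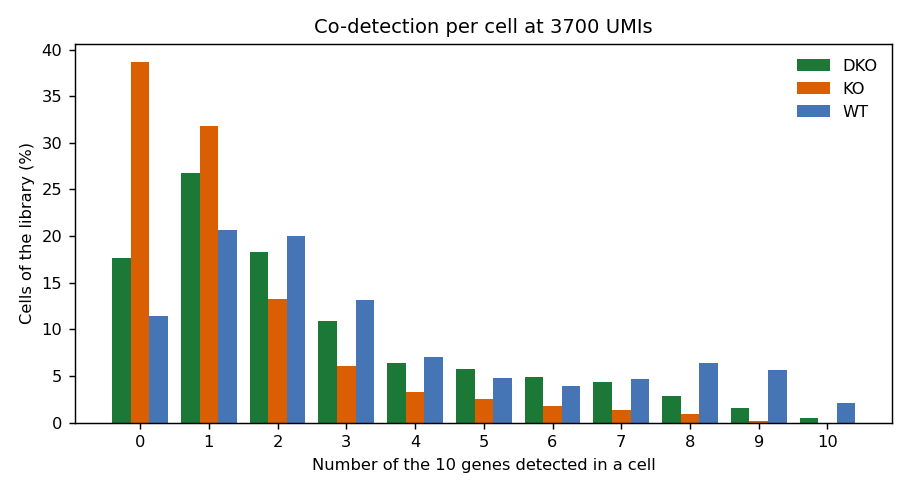
Percentage of cells of each library in which 0 to 10 of the genes were detected, every cell thinned to 3700 UMIs. DKO, KO and WT are drawn from left to right at each number. KO is highest at 0 genes (38.7%), and WT has a dip at 6 genes (3.98%) and a second rise at 8 (6.46%).

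Cells with many of the genes were not the deeper ones. DKO cells with 7 to 10 of them had a median of 10662 UMIs before thinning, against 12948 in those with 0 to 2. The medians were 11996 against 17988 in KO and 8436 against 10266.5 in WT. Median mitochondrial shares of the cells with 7 to 10 were 2.65% in DKO, 2.78% in KO and 3.11% in WT, beside 2.69%, 2.84% and 3.01% in cells with 0 to 2. Heat shock transcripts had medians of 7691, 7396 and 6678 CPM in DKO, KO and WT cells with 7 to 10 genes, beside 7470, 7836 and 6816 in those with 0 to 2. Cycling cells made up 12.97%, 15.1% and 5.18% of the cells with 7 to 10 genes in DKO, KO and WT, beside 16.0%, 10.5% and 13.1% of those with 0 to 2, and the part of the cell cycle in these counts was not tested. The 10 genes made up 0.649% of all UMIs in DKO cells with 7 to 10 of them, 0.461% in such KO cells and 0.910% in such WT cells.

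Cells with the rarer genes held the common ones more often than cells at large. In DKO, 79.2% of cells with Nr4a1 also had Jund, against 44.8% of all DKO cells, and 86.8% had Fos, against 33.5%. In WT, 89.97% of cells with Nr4a1 had Jund, against 53.2% of all WT cells, and 90.8% had Fos, against 42.1%. Where only 1 of the 10 genes was detected it was mostly Jun, Jund or Ier2, with 26.1%, 25.1% and 20.8% of such cells in DKO and 27.1%, 22.7% and 16.9% in WT. In KO these were 16.0%, 24.5% and 24.5%, and Junb made up 18.8%, while Nr4a1 was the only gene in 0.357% to 0.511% of such cells of any library.

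Pearson correlations over cells, computed on the log of 1 plus the thinned count, also describe how the genes were detected together. They share the library, depth and sparseness of each cell, and no p is given. The median over the 45 pairs of genes was 0.34 in DKO (8184 cells), 0.23 in KO (4920 cells) and 0.52 in WT (8147 cells), and 33, 12 and 45 pairs exceeded 0.3. The number of cells with both genes over the number that independent detection would give had the other order, with a median over pairs of 1.77 in DKO, 2.48 in KO and 1.68 in WT. Both measures move with the detection rate, which was lowest in KO, so neither is read as weaker or stronger co-expression in a library. The pair with the highest value was Fos with Dusp1 in DKO (0.60), Fosb with Jun in KO (0.49) and Fos with Fosb in WT (0.69). Nr4a1 had the weakest ties in KO, where it was detected in 54 thinned cells, for example 0.10 with Jund, beside 0.29 in DKO and 0.38 in WT.

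**Figure D3:**
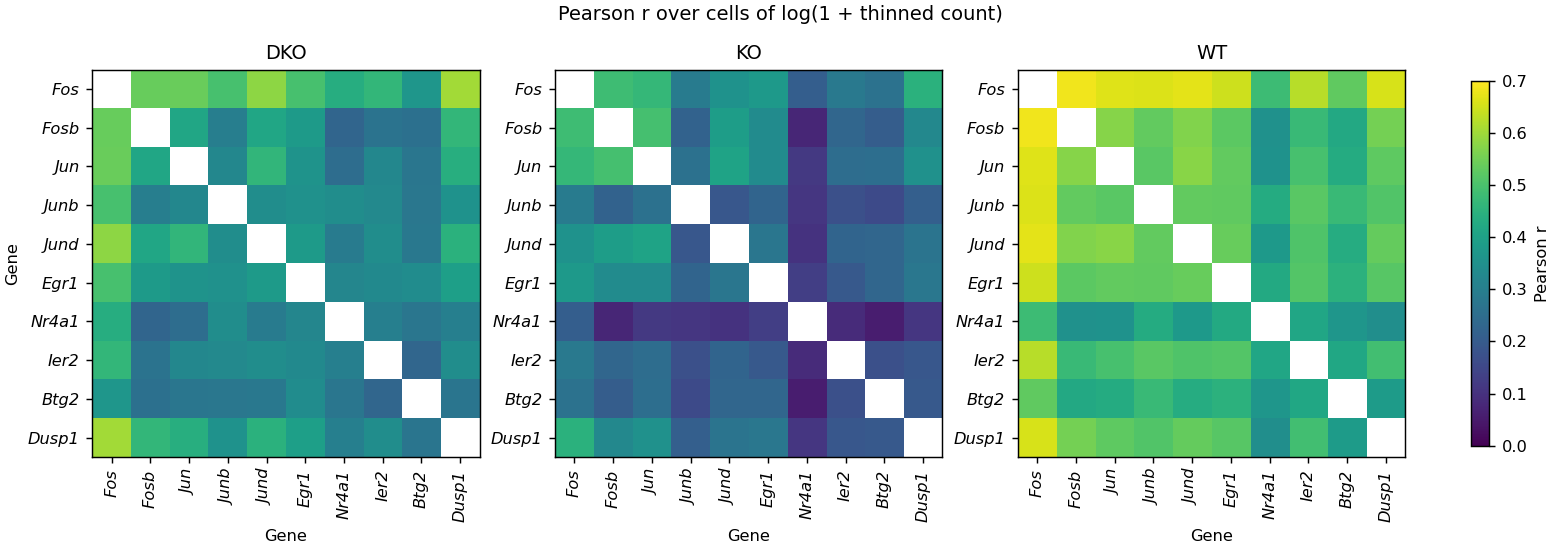
Pearson correlation of each pair of genes over the cells of DKO, KO and WT (left to right), on the log of 1 plus the count at 3700 UMIs. Colour runs from 0 to 0.7 and the diagonal is left blank. DKO has a median of 0.34, KO has a median of 0.23 and its Nr4a1 row is the darkest, and WT has a median of 0.52 with the Fos and Fosb pair at 0.69.

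The genes whose counts over cells were most like the summed 10 genes were ranked by their lowest correlation in any library, over 4220 genes with at least 20 CPM in all 3. Klf6, a zinc finger factor that is itself an immediate early gene, led with 0.51 in DKO, 0.37 in KO and 0.61 in WT. Zfp36, whose product binds AU-rich elements and speeds decay of early transcripts, followed with 0.47, 0.36 and 0.68, and the early activation antigen gene Cd69 with 0.28, 0.28 and 0.40. Neat1, Ier3, Ctla2a, Malat1, Srsf5 and Rbm39 were also among the first 10, with lowest correlations between 0.13 and 0.18, which in counts this sparse is no finding. Over 36 sums of 1 library within 1 cluster, Jun was most like Jund (0.97) and Dusp1 most like Klf6 (0.96), while the 3 genes most like Nr4a1 (Eya1, Csad and Sigirr, each at 0.92) were not among the 10.

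Upstream sequence is shown for 4 of the genes, Nr4a1 and Fos for their large KO to WT ratios, and Btg2 and Dusp1 because they held the full palindrome TGACGTCA, the cyclic AMP response element bound by CREB and ATF dimers. The sequences are the 250 bases before the start in RefSeq on GRCm38.p6, printed 5′ to 3′ on the strand of the gene. Capitals mark TGACG, the half-site, or its reverse complement CGTCA, which together make up the palindrome.
Nr4a1: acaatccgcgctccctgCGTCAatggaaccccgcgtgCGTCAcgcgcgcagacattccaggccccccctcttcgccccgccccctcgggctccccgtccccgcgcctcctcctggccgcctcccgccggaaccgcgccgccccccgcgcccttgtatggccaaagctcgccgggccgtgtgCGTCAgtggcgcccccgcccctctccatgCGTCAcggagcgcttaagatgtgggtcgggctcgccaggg
Fos: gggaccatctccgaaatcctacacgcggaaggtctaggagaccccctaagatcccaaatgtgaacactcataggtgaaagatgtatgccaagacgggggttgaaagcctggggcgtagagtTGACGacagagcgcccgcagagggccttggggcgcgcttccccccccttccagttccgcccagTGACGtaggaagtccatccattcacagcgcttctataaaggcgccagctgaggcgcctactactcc
Btg2: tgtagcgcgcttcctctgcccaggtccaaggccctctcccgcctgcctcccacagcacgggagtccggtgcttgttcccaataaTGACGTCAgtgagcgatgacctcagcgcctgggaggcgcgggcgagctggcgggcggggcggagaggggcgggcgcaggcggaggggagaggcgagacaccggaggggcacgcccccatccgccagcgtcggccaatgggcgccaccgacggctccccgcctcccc
Dusp1: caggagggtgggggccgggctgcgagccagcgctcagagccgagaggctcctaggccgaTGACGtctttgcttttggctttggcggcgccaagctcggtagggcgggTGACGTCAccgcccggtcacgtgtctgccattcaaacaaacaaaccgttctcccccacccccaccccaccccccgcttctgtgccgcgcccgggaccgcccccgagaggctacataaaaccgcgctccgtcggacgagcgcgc

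These stretches lie at chr15:101266596-101266845 on the forward strand for Nr4a1, chr12:85473640-85473889 on the forward strand for Fos, chr1:134079156-134079405 on the reverse strand for Btg2 and chr17:26508473-26508722 on the reverse strand for Dusp1. The search covered 250 bases before to 50 after the start, on both strands, in the 8 genes with a RefSeq promoter entry. Egr1 and Ier2 were not in that table. The 8 include Jund, whose RefSeq start lies upstream of the gene in the GENCODE annotation of the same build and whose window held none of the motifs searched. The half-site TGACG was present in 6 of the 8 (Nr4a1, Fos, Btg2, Dusp1, Fosb and Junb) and in 20.8% of all 32851 promoters, and the palindrome, which overlaps a half-site on each strand, in 2 of 8 and 1.79%. Nr4a1 held 4 half-sites, all read on the reverse strand, and Fos 2, both on the forward strand. The letters TATAAA of the TATA box were found in Fos and Junb and in 13.6% of all promoters. In Fos they lay at bases -33 to -28 from the RefSeq start, and in Junb at bases 1 to 6 after it. For Junb and Btg2 the RefSeq start also lies upstream of the GENCODE gene, so the Junb letters lie before the GENCODE start. For Fosb, Nr4a1 and Dusp1 the RefSeq start lies within the GENCODE gene. The AP-1 site TGANTCA (7.81% of promoters) and the CArG box bound by serum response factor (1.63%) were found in none of the 8 windows. Sites further upstream, and those of Egr1 and Ier2, were not searched, so this does not show that the genes lack them.

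Clusters were made without the 10 genes and without other immediate early and heat shock genes, and named by markers, so types are rebuilt from transcripts. The DKO, KO and WT libraries differed in what they held: stem cell-like cells numbered 374, 32 and 925, megakaryocyte progenitor-like cells 1210, 461 and 523, neutrophil progenitor-like cells 58, 1446 and 28, erythroid progenitor-like cells 2, 985 and 3, and B lineage-like cells 13, 3 and 651. Erythroid and neutrophil markers go against an LSK gate, and the sizes of these clusters are not compared further. Lymphoid-primed-like cells came from clusters 7 (154, 5 and 1110 cells) and 14 (181, 65 and 547 cells). Fos, Fosb, Egr1 and Btg2 were among the top 15 genes of cluster 7 although they were left out of clustering, so cluster 14 is used for the comparison. Values are given where a library had at least 50 cells.

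Stem cell-like cells, named by Procr, Mecom, Mllt3, Tgm2 and Esam, had the highest summed level among the named types in DKO and in WT. The 10 genes summed to 2493 CPM there in DKO and 3588 in WT, beside 1401 and 2297 over all cells of those libraries. Unnamed clusters stood higher. WT cells of cluster 5, led by Wfdc17 and Ccl3, reached 4219. Cluster 12, led by Egr1, Fosb and Fos, was at 3173 in DKO (50 cells) and 3636 in WT (906 cells). Nr4a1 was at 92.3 CPM (82.4 to 103) in DKO stem cell-like cells and 81.1 (74.7 to 87.9) in WT, which overlap. Fos was at 666 and 955 CPM, Egr1 at 116 and 220, and Fosb at 76.9 and 212. In DKO against WT 4 of 10 genes were at least 1.5-fold lower in this type (Fosb, Btg2, Egr1 and Jun), where 1.57% of 5398 genes were, and the median log2 ratio was -0.48. The 32 KO cells were too few to compare.

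In megakaryocyte progenitor-like cells, named by Pf4, Itga2b, Gp1bb and Gp9, the 10 genes summed to 1604 CPM in DKO, 602 in KO and 1693 in WT. Fos was at 393, 82.5 and 353 CPM in DKO, KO and WT, and Dusp1 at 131, 33.7 and 103. Both genes stood higher in DKO than in WT here, Fos by 1.11-fold (1.06 to 1.17) and Dusp1 by 1.26-fold (1.15 to 1.38). The median log2 ratio of DKO over WT over all genes was 0.10 in these cells, beside 0.15 for Fos. Nr4a1 was at 31.3, 5.49 and 24.2 CPM.

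Between KO and WT, 9 of the 9 genes measured in megakaryocyte progenitor-like cells were at least 1.5-fold lower in KO, where 2.42% of 5157 genes were, and the median log2 ratio was -1.55. Between DKO and KO, 8 of 9 were at least 1.5-fold higher in DKO, where 6.73% of 5232 genes were, with Btg2 the exception at 1.31-fold (1.15 to 1.48). Between DKO and WT, only Fosb of the 10 was at least 1.5-fold lower, at a ratio of 0.630 (0.575 to 0.690), where 0.791% of 5312 genes were. The median log2 ratio was -0.08, beside 0.10 over all genes. The DKO level was thus near that of WT in this type.

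In the lymphoid-primed-like cells of cluster 14, named by Dntt, Il7r, Notch1 and Ly86, the sums were 646 CPM in DKO, 542 in KO and 1764 in WT. Jun was at 105 CPM (93.3 to 119) in DKO, 112 (90.8 to 137) in KO and 291 (277 to 306) in WT. Egr1 was at 8.89, 17.9 and 72.5 CPM, and Fosb at 16.2, 31.1 and 115. The DKO and KO intervals overlapped for Jun and Egr1, and both lay below WT.

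Set against WT, KO cells of cluster 14 had all 10 genes lower by 1.5-fold or more, as had 8.84% of 4887 genes, and the median log2 ratio was -1.75. All 10 were also at least 1.5-fold lower in DKO than in WT, where 5.59% of 5009 genes were, with a median of -1.49. Between DKO and KO, 2 of 7 genes measured were at least 1.5-fold higher in DKO (Fos and Ier2), where 12.5% of 4820 genes were. Fosb passed the threshold downwards, as did 4.75% of genes, at a ratio of 0.522 (0.313 to 0.887). The DKO level was thus near that of KO in cluster 14 and near that of WT in megakaryocyte progenitor-like cells, and the difference between the types was not tested. With clusters 7 and 14 together the median log2 ratio of DKO over WT was -1.84.

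**Figure D4:**
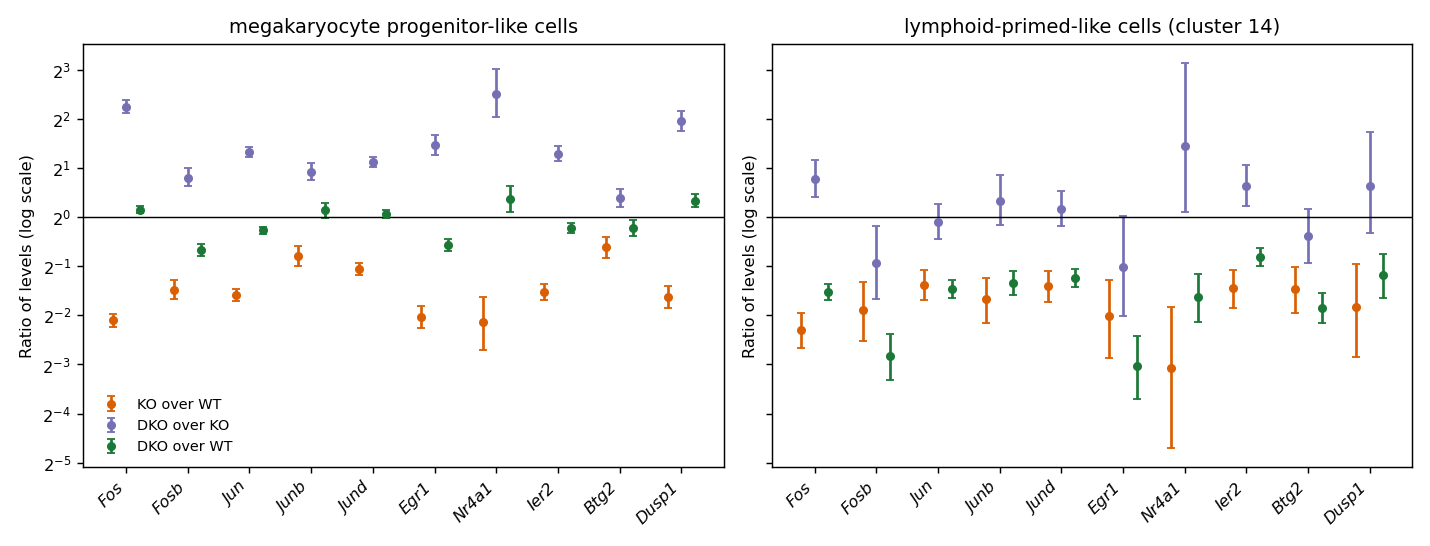
Ratio of levels on a log axis with exact 95% intervals, for each gene in megakaryocyte progenitor-like cells (left) and in lymphoid-primed-like cells of cluster 14 (right). For each gene the points are KO over WT, DKO over KO and DKO over WT. DKO over WT lies near 1 on the left (Fos 1.11) and well below it on the right (Fos 0.349).

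These within-type values depend on how the cells were grouped. In lymphoid-primed-like cells the sums in DKO, KO and WT were 884, 665 and 2298 CPM at resolution 0.6 and 897, 584 and 1721 at resolution 1.5. At resolution 1.5, 7 of 10 genes were at least 1.5-fold lower in DKO than in WT. With immediate early and heat shock genes in the clustering the sums were 619, 422 and 784 CPM, so DKO was not near KO in every grouping. When immediate early and heat shock genes were allowed to drive the clustering, so that cells with high levels could form clusters of their own, the lymphoid-primed-like cells had a median log2 ratio of -0.32 for DKO over WT (503 and 1376 cells) and -0.85 for KO over WT (94 and 1376 cells). Stem cell-like cells then had -0.08 for DKO over WT and -0.41 for KO over WT. Between KO and WT, 5 of 8 genes passed 1.5-fold downwards in those lymphoid-primed-like cells (5.97% of all genes), 3 of 8 in the stem cell-like cells (5.63%) and 9 of 9 in megakaryocyte progenitor-like cells (2.29%). In the megakaryocyte progenitor-like cells the KO over WT median was -1.30 and the DKO over WT median -0.31.

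Erythroid progenitor-like cells, nearly all of which came from the KO library, had a selective profile. Jun was at 200 CPM in them (192 to 207), Jund at 147, Fos at 96.2 and Fosb at 92.9, whereas Nr4a1 was at 0.394 (0.145 to 0.858) from 6 UMIs in 985 cells. They made up 20.02% of KO cells and 15.004% of KO UMIs, and held 43.7% of its Fosb UMIs, 30.8% of its Jun and 2.44% of its Nr4a1. KO neutrophil progenitor-like cells, with 46.5% of KO UMIs, held 16.1% of its Fosb, 6.37% of its Egr1 and 41.0% of its Ier2.

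In neutrophil progenitor-like cells the 10 genes summed to 821 CPM in 58 DKO cells and 269 in 1446 KO cells. Fos was at 232 CPM (207 to 259) in DKO and 38.8 (37.0 to 40.6) in KO, and Dusp1 at 85.8 and 14.3. Junb was at 42.9 and 43.1 CPM, with a DKO over KO ratio of 0.996 (0.752 to 1.30). Of 6 genes measured, 5 were at least 1.5-fold higher in DKO, where 7.45% of 4767 genes were. Not every group had this direction. In the unnamed cluster 17 (228 DKO and 218 KO cells) the sums were 738 and 704 CPM. There 0 of 9 genes passed 1.5-fold upwards and 2 downwards, as did 6.87% and 1.43% of 4976 genes. At resolution 0.6, erythroid progenitor-like cells summed to 371 CPM in DKO (90 cells) and 766 in KO (1036 cells). There 6 of 8 genes passed downwards (9.41% of 4918), though 88 of the DKO and 52 of the KO cells came from 1 cluster. WT B lineage-like cells had 708 CPM in sum, with Btg2 at 64.3 and Jund at 155.

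**Figure D5:**
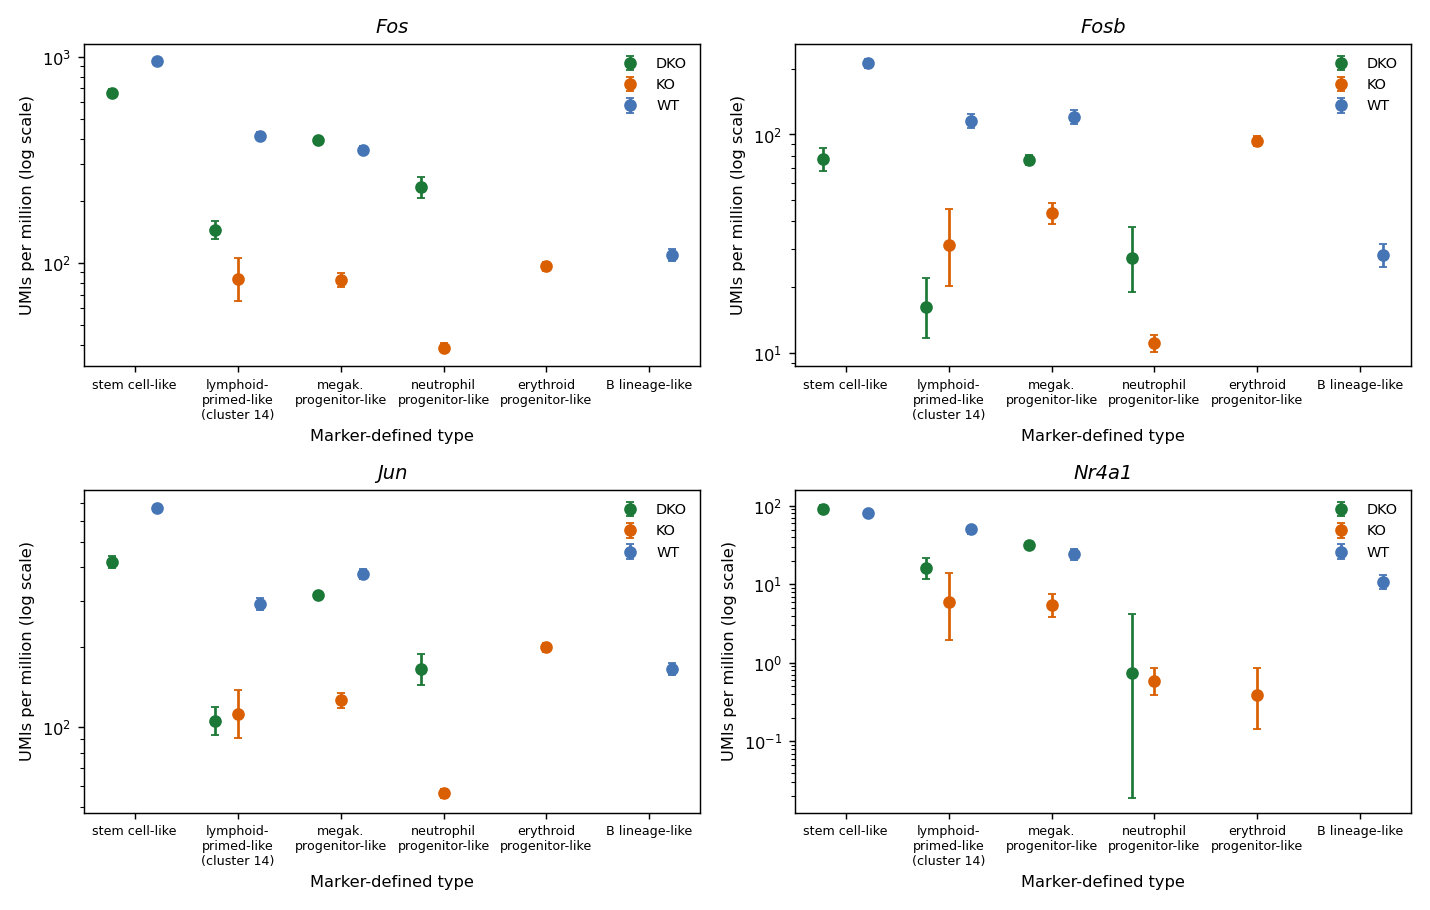
Level of Fos, Fosb, Jun and Nr4a1 in CPM (log axis) in each marker-defined type with at least 50 cells of a library, with exact Poisson 95% intervals, DKO, KO and WT from left to right. In WT the stem cell-like cells are highest for all 4 genes, with Fos at 955, and Nr4a1 is lowest in KO erythroid progenitor-like cells, at 0.394.

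Cycling state gave different orders in the libraries. Cells were called cycling when S phase or G2 and M phase genes exceeded a set share of their thinned UMIs. The 10 genes summed to 1165 CPM in cycling and 1454 in other DKO cells, a ratio of 0.801 (0.790 to 0.812). The ratio was 1.35 (1.31 to 1.38) in KO and 0.585 (0.575 to 0.594) in WT, so over all cells of a library cycling cells had the higher level in KO and the lower level in DKO and WT. The KO excess was not seen within the KO groups with enough cells, where the ratio was 0.874 (0.840 to 0.910) in erythroid progenitor-like cells and 1.04 (0.986 to 1.09) in unnamed clusters. Without erythroid progenitor-like cells the ratio over the remaining KO cells, which mix types, was 1.27 (1.22 to 1.31).

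Within megakaryocyte progenitor-like cells the ratios of cycling to other cells were 0.691 (0.671 to 0.711) in DKO, 0.931 (0.863 to 1.002) in KO and 1.13 (1.08 to 1.18) in WT. The order over all cells therefore did not hold in this type, where DKO was the lowest. Phase calls read a few transcripts per cell, and the part of free RNA in them was not tested.

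Related genes were read from lists of the same pathway, beside the all-gene shares given above for each comparison. Of 15 other immediate early genes measured, 13 passed 1.5-fold downwards in KO against WT and 0 upwards, with a median log2 ratio of -1.44. The chemokine genes Ccl4 and Ccl3 were at 47.2 and 43.0 CPM in DKO, 6.81 and 5.89 in KO, and 82.1 and 68.7 in WT, and Klf2, a quiescence-linked Krüppel-like factor, at 69.7, 12.01 and 129. Between DKO and KO 8 of 15 were higher and 0 lower, and between DKO and WT 6 of 16 were lower.

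Partners of AP-1 were within the threshold. Of 5 other AP-1 and bZIP genes measured (among 17 listed), 0 were past 1.5-fold in KO against WT, and Atf4, the integrated stress response factor, was at 120 CPM in DKO, 161 in KO and 116 in WT. Nab1, a corepressor of EGR proteins and the only measured gene of its list, was at 19.6, 22.8 and 21.1 CPM. Dusp2, a second nuclear MAP kinase phosphatase and the only measured gene among 12 phosphatase and ERK feedback genes, was lower in KO by 5.90-fold (5.61 to 6.21) set against WT and 2.80-fold higher in DKO than in KO (2.65 to 2.95). Btg1 and Tob2, relatives of Btg2, were lower in KO by 2.04-fold and 1.72-fold, set against WT.

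Genes that control or destroy early transcripts were mixed. Of the 10 upstream kinase and serum response factor genes measured, 2 were at least 1.5-fold higher in KO than in WT and 2 lower. Rps6ka3, which encodes the ERK-activated kinase RSK2, was at 27.3 CPM in DKO, 53.6 in KO and 27.6 in WT, and Mapkapk2, a kinase downstream of p38, at 42.6, 80.2 and 41.5. Elk3, a ternary complex factor, was at 25.7, 17.7 and 33.5 CPM. Of 5 AU-rich decay genes 2 were lower in KO than in WT, Zfp36 by 6.90-fold (6.59 to 7.23) and Zfp36l2 by 2.19-fold (2.15 to 2.23), while Hnrnpd was at 126, 210 and 158 CPM. Heat shock genes were split as well, with 2 of 9 higher and 2 lower in KO than in WT, Hspe1 at 599, 1062 and 631 CPM and Dnajb4 at 24.95, 15.8 and 27.1 in DKO, KO and WT.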

How the data were processed

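Single-cell RNA was measured in 3 libraries of LSK cells (DKO, KO and WT). Seurat, Cell Ranger, bcl2fastq and, as genome build, mm10 are named in the submitters' processing notes. Their versions, the counter settings and the filters on cells are not given in the sources used here. The authors deposited whole-number UMI counts per gene and cell, from which all values were computed. The table of natural log values that the authors deposited matched ln of 1 plus 10000 times count over cell total at all 69176581 nonzero entries, within 0.001, and served for that check only.

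The 10 genes and the related lists were chosen with earlier results of these data known. Counts were summed per library and expressed per 1000000 UMIs. A gene was measured when its mean over a pair was at least 20 CPM and was counted when past 1.5-fold. Ratios carry exact conditional binomial intervals, levels exact Poisson and shares exact Clopper-Pearson intervals. Shares of cells and correlations used cells thinned to 3700 UMIs, unless given as before thinning. The parts of UMIs in the top 10% of cells used counts before thinning.

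Cells were clustered together with scanpy 1.11.5 and leidenalg 0.10.2 on 2000 variable genes without sex-linked, mitochondrial, ribosomal, predicted, cell cycle, immediate early or heat shock genes, using 30 principal components, 20 neighbours and resolution 1. A cluster was named when its top 15 genes held at least 3 markers of a list, 2 or more ahead of any other list. No doublet caller was run and all deposited cells were kept. Libraries were not batch corrected, because each genotype is a single library. A cell was cycling when either phase list exceeded 1% of its thinned UMIs.

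Of each related list, up to 3 measured genes with the largest absolute KO over WT log2 ratio were named. Genes most alike were the 10 with the highest lowest correlation over the libraries, and the 3 with the highest correlation over cluster sums with at least 50 cells. Dusp2 and the other genes named follow this rule. A gene among the most alike and a B lineage marker are not reported here. Calculations were tested on simulated counts. Alternatives covered scaling by edgeR 4.0.16 TMM and by median of ratios, thresholds, depth and clustering.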

Additional observations from a re-analysis of the deposited data

Results flagged for a closer look

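The DKO over WT ratio ran in opposite directions in different cell types for 3 of the genes, in each case with counting intervals on opposite sides of 1. Fos was at a ratio of 1.11 (1.06 to 1.17) in megakaryocyte progenitor-like cells, against 0.698 (0.666 to 0.732) in stem cell-like cells and 0.349 (0.312 to 0.390) in the lymphoid-primed-like cells of cluster 14. In megakaryocyte progenitor-like cells the median log2 ratio over all genes was 0.10, beside 0.15 for Fos, so Fos lay close to the general offset there. Dusp1 was at 1.26 (1.15 to 1.38) in the megakaryocyte progenitor-like cells, against 0.788 (0.716 to 0.866) in stem cell-like and 0.440 (0.321 to 0.592) in cluster 14 cells. Nr4a1 was at 1.29 (1.08 to 1.56) in the megakaryocyte progenitor-like cells and 0.324 (0.229 to 0.449) in cluster 14. For DKO over KO, Fosb was at 1.75 (1.54 to 1.99) in megakaryocyte progenitor-like cells and 0.522 (0.313 to 0.887) in cluster 14. The difference between types was not tested, since each genotype has 1 library. It also depends on the grouping of cells: with immediate early and heat shock genes in the clustering, the median DKO over WT log2 ratio was -0.32 in lymphoid-primed-like, -0.31 in megakaryocyte progenitor-like and -0.08 in stem cell-like cells.

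The summed level of the 10 genes in cycling over other cells was 0.801 (0.790 to 0.812) in DKO, 1.35 (1.31 to 1.38) in KO and 0.585 (0.575 to 0.594) in WT, so it lay above 1 in KO and below 1 in DKO and WT. Within KO it was 0.874 in erythroid progenitor-like cells, 0.931 in megakaryocyte progenitor-like cells and 1.04 in unnamed clusters, so in the sum no such group showed the excess of the whole library. These differences between libraries were not tested either.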

How the results depend on the processing

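With 1 library per genotype, no replicate could be left out. No paired analysis was possible because each group has 1 library and no result comes from a test. Of 47 alternatives, 40 planned and 7 added after seeing the data, 33 left the value within its limits and 14 moved it. For a count the limit was 1.5-fold of the reported count, whatever the number of genes measured, and for a share it was the interval. By this rule 17 of 25 beside 19 of 19 was within limits and 35 of 36 was moved, so these totals do not measure stability. KO over WT gave 10 of 10 genes lower under all 8 alternatives. DKO over KO gave 9 of 9 higher under both scalings, 8 with equal weight for each cell and 7 at 2-fold. DKO over WT gave 6 lower, but 3 at 2-fold, 8 with equal cell weight or without the erythroid, neutrophil and B lineage types, and 4 without clusters 7 and 12, which were led by the genes themselves. Shares of cells with at least 3 genes were 75.0%, 57.6% and 81.1% in DKO, KO and WT when not thinned, 47.8%, 22.5% and 59.9% at 5500 UMIs, and 20.1%, 6.81% and 27.7% for at least 5 genes. The WT share alone moved without those 3 types (50.1%), without the 5% deepest cells (49.1%) and without the clusters led by the genes (44.3%). The count within types was 19 of 19, and 35 of 36 over 4 types at resolution 0.6. With immediate early and heat shock genes among the variable genes it was 17 of 25, of which 5 of 8 were in lymphoid-primed-like, 3 of 8 in stem cell-like and 9 of 9 in megakaryocyte progenitor-like cells. TMM moved the all-gene median log2 ratio of KO over WT from 0.02 to 0.17 and that of the 10 genes from -2.15 to -2.00.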
